A study of Arabidopsis thaliana with 12 samples.

Results

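The genotype by submergence interaction is the difference between the leaf transcript response of the autophagy mutant atg5 to submergence and that of the Col wild type, called col here. It was computed for each gene as (atg5 submerged minus atg5 control) minus (col submerged minus col control), on a log2 scale where 1 unit is a 2-fold difference. All 12 arrays of the series entered the model. Every gene with a probe set assigned to it alone was kept, which gave 13356 genes out of 22810 probe sets. A positive interaction means that the transcript rose more, or fell less, in atg5 than in col, and a negative one the opposite.

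Arabidopsis thaliana plants of both genotypes were grown for 28 days in cycles of 12 h of light and 12 h of darkness. Whole plants were then submerged 10 cm below the water surface, still in light and dark cycles, and leaves were taken at 0 h (control) or at 48 h. The 4 groups, col control, col 48 h, atg5 control and atg5 48 h, each hold 3 biological replicates, with 1 array per sample. The labels name no atg5 allele and do not say whether control leaves were also harvested at the later time. The probe set of ATG5 could not be named with the gene table at hand, so the mutated gene was not analysed here.

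Autophagy is the route by which cells enclose part of their own content in a double membrane, the autophagosome, and deliver it to the vacuole for breakdown and reuse. ATG5 acts in the conjugation machinery that attaches ATG8 proteins to the lipid of this membrane, so plants without it cannot complete the process. Submerged leaves receive little oxygen and carbon dioxide, and they shift towards fermentation, reserve use and the breakdown of proteins and amino acids. The samples are bulk tissue, in which fewer cells of a type and less RNA per cell cannot be told apart. Family names given below for loci without a symbol are general knowledge of Arabidopsis genes and were not read from the tables used here.

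The leaf label was checked against markers. The 7 measured mesophyll markers had summed log2 signals of 94.0 to 94.5 in col control and 94.2 to 94.4 in atg5 control, while the root gene PYK10 lay between 2.20 and 2.35 on every array. After 48 h the mesophyll sum spread from 71.7 to 80.8 in col and from 78.9 to 80.8 in atg5. Of the 3 col 48 h arrays, replicate 2 was the lowest and replicate 3 the highest for all 7 mesophyll markers, and results that rest on either are given without it below. All arrays share a lowest value of 2.20, the signal floor. A group whose 3 arrays all lie within 0.05 of it gives only an upper limit of the level, and 5176 genes had at least 1 such group. The other 8180 genes had no such group and are called measured in all 4 groups here. Some of them still lay on a repeated value just above that limit, such as LUP5 (AT1G66960) at 2.27 on all 3 atg5 control arrays. There too the signal may give only an upper limit of the level.

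Most of the response to submergence was shared by both genotypes, and a small set of genes set them apart. Submergence changed 42.5% of the genes in col and 40.3% in atg5. The interaction passed for 80 genes, 0.599% of those tested (limma on all 12 arrays, Benjamini-Hochberg adjusted p under 0.05). Of these, 45 were positive (0.337%) and 35 were negative (0.262%). Without adjustment 1532 genes had a p under 0.05. The count moved with the arrays used, from 51 without atg5 48 h replicate 1 to 186 without col 48 h replicate 3. It was also over 1.5 times higher without col control replicate 2 (126) and without col control replicate 3 (137).

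**Figure D1:**
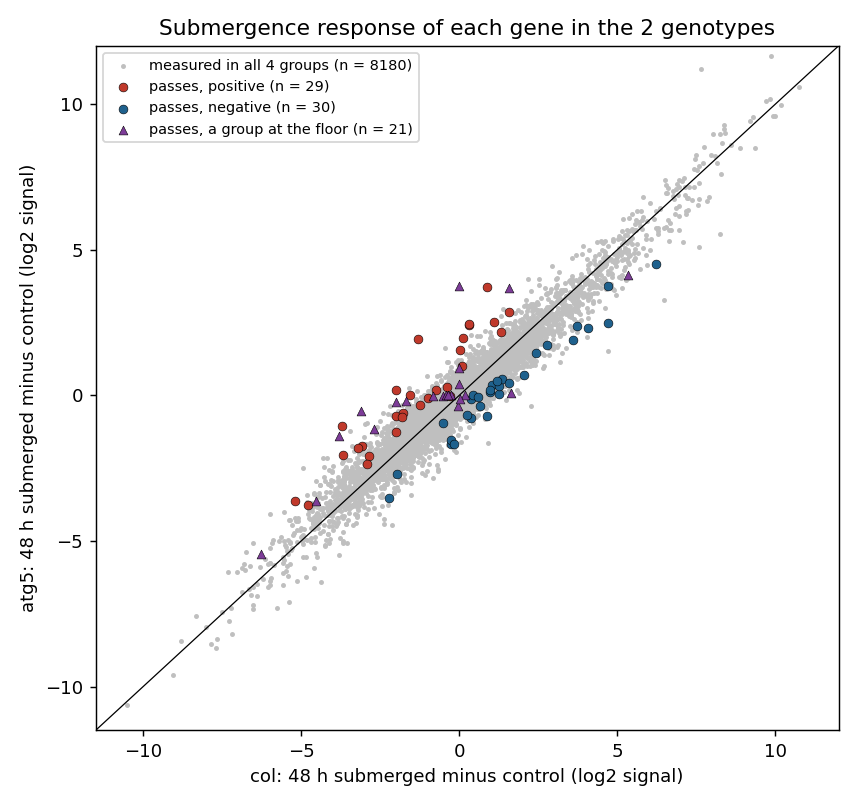
Response of each gene to submergence in col (x axis) and in atg5 (y axis), as log2 signal at 48 h minus control, with 1 point per gene and a line of equal response. The 29 positive genes lie above the line, the 30 negative genes below it, and triangles mark the 21 genes that passed with a group at the signal floor.

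Among the 59 genes that passed and were measured in all 4 groups, the genotypes came apart in several ways. Both responses passed in the same direction for 34 of them, smaller in atg5 for 27 and larger in atg5 for 7. The response passed in atg5 alone for 10 genes and in col alone for 11, and in 4 genes the responses passed in opposite directions. The difference between the genotypes passed only under water for 32 genes, only before submergence for 23, at both times for 2 and at neither for 2. A difference that did not pass can still be present. That of AT1G72940 passed only at 48 h, yet its control groups did not overlap. Over all genes, the difference between the genotypes passed for 2.34% in control and for 3.42% at 48 h. The interaction is built from the same arrays, so these patterns describe the 59 genes and are no further evidence. A group mean lay within 0.5 log2 of the floor for 18 of the 59, where a true change in level can be larger than the change in signal.

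The first kind of positive gene rose under water in atg5 and rose less, or did not pass, in col. M10 (AT2G41280), a gene related to the late embryogenesis abundant proteins of seeds and dry tissue, showed this most clearly. In col its log2 signal was 2.20, 2.45 and 2.35 in control and 3.35, 3.30 and 2.94 after 48 h. In atg5 it was 2.45, 2.21 and 2.45 in control and 6.54, 5.74 and 5.99 after 48 h. The control groups overlapped, and every submerged atg5 array lay above every submerged col array. The response was 0.86 in col and 3.72 in atg5, an interaction of 2.86 ± 0.28 (SE, limma adjusted p = 0.00608).

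AT5G24240, of the phosphatidylinositol 4-kinase gamma family, was unlike the others because the genotypes were already far apart before submergence. Its signal in col was 2.87, 2.54 and 2.43 in control and 2.94, 2.98 and 2.86 at 48 h. In atg5 it was 6.81, 7.38 and 7.01 in control and 9.46, 9.50 and 9.66 at 48 h. Col stayed near the floor throughout, and no col array came near an atg5 array. The genotypes differed by 4.46 in control and by 6.61 at 48 h, and the interaction was 2.15 ± 0.22 (limma adjusted p = 0.00608).

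LUP5 (AT1G66960), of the oxidosqualene cyclase family that makes triterpenes such as lupeol, was near the floor in both control groups. It read 2.25, 2.27 and 2.24 in col control and 2.27 on all 3 atg5 control arrays. At 48 h it read 2.40, 2.33 and 2.92 in col and 4.35, 5.01 and 4.71 in atg5. The submerged groups did not overlap, and the interaction was 2.13 ± 0.26 (limma adjusted p = 0.0148). ATSMC2 (AT3G47460), a subunit of the condensin complex that compacts chromosomes, had the same shape at low signal. Its values lay between 2.33 and 2.65 in the other 3 groups and were 4.13, 4.17 and 3.97 in atg5 at 48 h, with an interaction of 1.53 ± 0.12 (limma adjusted p = 0.00258). Both calls ended when all values under 4 were raised to 4, an alternative added after seeing the data, with interactions of 0.69 (adjusted p = 0.167) and 0.10 (adjusted p = 0.611).

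AT1G07160, a protein phosphatase of the 2C type, and AT5G59070 were also near the floor in control. AT1G07160 was 2.27, 2.27 and 2.49 in col at 48 h and 4.49, 4.46 and 3.66 in atg5 at 48 h, and its interaction was 1.88 ± 0.27 (limma adjusted p = 0.0282). AT5G59070 was 3.57, 3.67 and 3.06 in col and 4.72, 4.91 and 5.10 in atg5 at 48 h, and its interaction was 1.42 ± 0.22 (limma adjusted p = 0.0367). Neither pair of submerged groups overlapped. The calls were less secure than those above: with 1 array left out the adjusted p of AT1G07160 ranged from 9.4e-05 to 0.0682 and missed the threshold in 8 of 12 cases, and that of AT5G59070 ranged from 0.0121 to 0.0852 and missed it in 10. With values raised to 4 the interaction of AT1G07160 was 0.32 and did not pass (adjusted p = 0.578).

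The second kind of positive gene fell under water in col and was kept up, or rose, in atg5. AT5G37590 had an interaction of 3.22 ± 0.47, the largest of the 59 (limma adjusted p = 0.0282). In col it went from 5.84, 6.29 and 6.35 in control to 4.72, 4.54 and 5.35 at 48 h, and in atg5 from 4.89, 5.90 and 5.69 to 7.12, 7.87 and 7.27. The responses passed in opposite directions, -1.29 in col and 1.93 in atg5, and the submerged groups did not overlap. With 1 array left out the interaction lay between 2.91 and 3.46, and its adjusted p rose as high as 0.0674, above the threshold in 5 of 12 cases (without atg5 control replicate 3, col 48 h replicate 1 or any atg5 48 h array).

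AT3G01060 showed the pattern with little spread. In col it was 8.18, 8.09 and 8.41 in control and 6.29, 6.58 and 5.85 at 48 h. In atg5 it was 8.16, 8.26 and 8.17 in control and 8.34, 8.29 and 8.50 at 48 h. The control groups overlapped, and the submerged col arrays were the only ones that lay low. Its interaction was 2.17 ± 0.24 (limma adjusted p = 0.00749), from a fall of 1.99 in col and a response of 0.18 in atg5 that did not pass. AT2G32500 fell in both genotypes, from 9.02, 8.88 and 9.09 to 4.09, 3.34 and 4.01 in col and from 9.10, 9.18 and 9.01 to 5.45, 5.66 and 5.34 in atg5. Its interaction was 1.57 ± 0.26 on the log2 scale (limma adjusted p = 0.0449), but on the linear signal scale the sign turned, with a difference of responses of -5.82 signal units. Its call ended in 9 of 12 cases with 1 array left out (adjusted p up to 0.101).

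The third kind of positive gene was already lower in atg5 before submergence and ended at a like level in both genotypes under water. AT4G29020, of the glycine-rich proteins, was 7.16, 6.48 and 7.34 in col control and 4.14, 4.40 and 3.80 in atg5 control. At 48 h it was 3.09, 3.22 and 3.57 in col and 3.09, 3.01 and 3.07 in atg5. The controls were apart by 2.88 with no overlap, and the submerged groups overlapped. Its interaction was 2.65 ± 0.34 (limma adjusted p = 0.0163), and 1 of 24 alternatives ended the call (adjusted p up to 0.0716).

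ATLP-1 (AT1G18250), a thaumatin-like protein, was 5.81, 6.17 and 5.96 in col control and 4.01, 4.40 and 4.58 in atg5 control. At 48 h every array of both genotypes lay between 2.25 and 2.32, close to the floor. Its interaction was 1.62 ± 0.19 (limma adjusted p = 0.0138). AT3G17130, of the invertase and pectin methylesterase inhibitor family, was above 3.7 in col control alone, at 3.77, 3.92 and 3.88. It read 2.29, 2.42 and 2.45 in atg5 control, 2.37, 2.26 and 2.24 in col at 48 h and 2.39, 2.37 and 2.42 in atg5 at 48 h. Because its replicates were so close, its interaction of 1.57 ± 0.08 had the smallest adjusted p of the 24 named genes measured in all groups (limma adjusted p = 0.000163). All its values lie under 4, so that the call could not be made when values were raised to 4 (interaction 0).

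**Figure D2:**
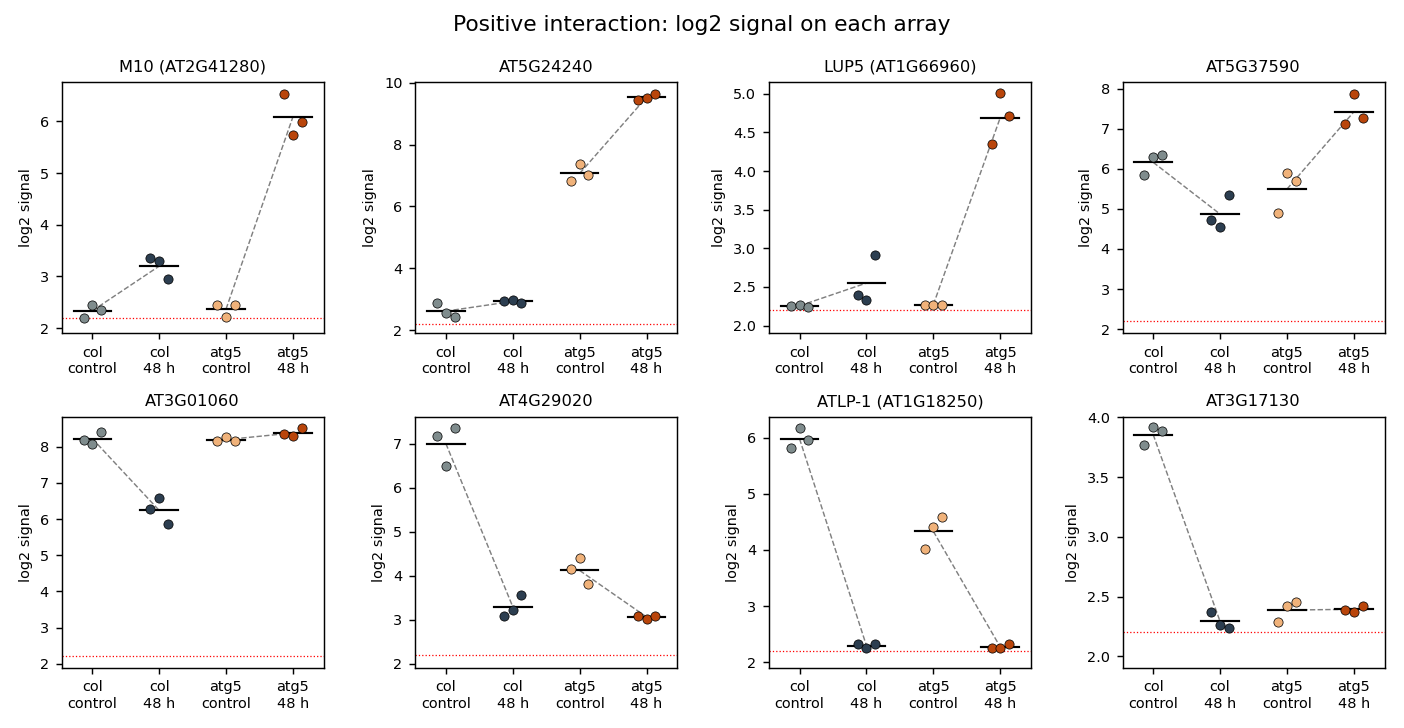
Log2 signal on each array for 8 genes with a positive interaction, with 1 point per array, a bar at each group mean, a dashed line from control to 48 h in each genotype and a red dotted line at the signal floor of 2.20. In M10, AT5G24240, LUP5 and AT5G37590 the 3 atg5 48 h arrays are the highest, in AT3G01060 the 3 col 48 h arrays are the lowest, and in AT4G29020, ATLP-1 and AT3G17130 the genotypes are apart in control.

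Of the remaining positive genes, 3 with smaller and tightly measured differences were singled out after their values were seen. NTRC (AT2G41680), the chloroplast NADPH-thioredoxin reductase, fell from 10.85, 10.94 and 11.00 to 8.84, 8.85 and 9.06 in col, and from 10.61, 10.62 and 10.68 to 9.38, 9.42 and 9.30 in atg5. Its interaction was 0.74 ± 0.09 (limma adjusted p = 0.0148). SPPA (AT1G73990), a protease of the thylakoid membrane, fell from 8.69, 8.85 and 8.67 to 8.40, 8.35 and 8.29 in col and was 8.65, 8.80 and 8.73 in atg5 control against 9.06, 8.94 and 9.06 at 48 h. The 2 genotypes overlapped in control and not at 48 h, and the interaction was 0.69 ± 0.08 (limma adjusted p = 0.0148). AT3G24190, of the ABC1 kinase family, had a response of -1.0 in col against -0.10 in atg5, an interaction of 0.90 ± 0.11 (limma adjusted p = 0.0163). These 3 calls held with each array left out. With the replicate number added to the model as a block, that of NTRC held (limma adjusted p = 0.0444). Those of SPPA (0.0615) and AT3G24190 (0.0716) ended, and SPPA also missed the threshold without the dimmest 40% of genes (0.0530).

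The negative genes were led by transcripts that rose in both genotypes and rose less in atg5. In 22 of the 30 measured in all groups the mean response of the genotypes was a rise, and in 8 it was a fall. FDH (AT5G14780), the mitochondrial formate dehydrogenase, was the brightest of those named. In col it went from 9.99, 9.95 and 9.69 to 13.52, 13.42 and 13.86, and in atg5 from 10.91, 10.62 and 10.59 to 13.22, 13.21 and 12.86. The control groups did not overlap, atg5 being higher by 0.83, and at 48 h atg5 lay lower, by 0.50, a difference that did not pass. The rise was 3.72 in col and 2.39 in atg5, an interaction of -1.33 ± 0.22 (limma adjusted p = 0.0446). With 1 array left out its adjusted p lay between 0.0418 and 0.0892 and missed the threshold in 10 of 12 cases.

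AT1G64360 had the largest negative interaction, -2.25 ± 0.37 (limma adjusted p = 0.0446). It rose from 4.81, 4.04 and 4.14 to 9.31, 8.81 and 9.02 in col and from 6.53, 6.90 and 6.04 to 8.83, 9.03 and 9.04 in atg5. The control groups were apart and the submerged groups overlapped. AT5G46780, of the VQ motif proteins, which bind WRKY transcription factors, rose from 4.57, 4.96 and 5.31 to 8.96, 9.25 and 8.86 in col and from 6.37, 5.94 and 6.03 to 8.39, 8.25 and 8.61 in atg5. Here the submerged groups were apart as well, with col higher, and the interaction was -1.78 ± 0.29 (limma adjusted p = 0.0433). Each of these calls missed the threshold with some arrays left out, in 10 of 12 cases for AT1G64360 (adjusted p up to 0.105) and in 9 for AT5G46780 (up to 0.101).

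AT5G12420, of the wax ester synthase family, rose steeply in both genotypes, from near the floor in col. It went from 2.44, 2.88 and 2.78 to 8.96, 9.02 and 8.85 in col, and from 3.67, 3.83 and 3.59 to 8.23, 7.82 and 8.54 in atg5. The interaction was -1.74 ± 0.25 (limma adjusted p = 0.0282), and the groups were apart at both times in opposite directions. AT2G36950, with a heavy-metal-associated domain, went from 6.32, 6.16 and 5.95 to 9.68, 10.06 and 9.48 in col and from 6.79, 6.95 and 6.52 to 8.75, 8.33 and 8.84 in atg5, an interaction of -1.71 ± 0.27 (limma adjusted p = 0.0410). The adjusted p reached 0.0710 for AT5G12420 and 0.0917 for AT2G36950 with 1 array left out, above the threshold in 6 and 10 of 12 cases. With values raised to 4 the interaction of AT5G12420 was -0.74 and did not pass (adjusted p = 0.180).

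AT1G72940, of the TIR-NBS family of immune receptor proteins and a member of the core hypoxia list, kept its call under every alternative tried. It rose from 4.66, 4.74 and 4.67 to 6.66, 6.85 and 6.74 in col and from 4.98, 5.17 and 5.23 to 5.71, 5.75 and 6.06 in atg5. Atg5 started above col on every array and ended below it on every array. The rise was 2.06 in col and 0.71 in atg5, an interaction of -1.35 ± 0.14 (limma adjusted p = 0.00639). AT1G21830 rose from 7.35, 7.03 and 7.37 to 8.64, 8.44 and 8.47 in col, while atg5 was 8.24, 7.84 and 8.08 in control and 8.27, 7.94 and 8.12 at 48 h. Its interaction was -1.21 ± 0.19 (limma adjusted p = 0.0375), and its adjusted p rose to 0.0852 with 1 array left out, above the threshold in 8 of 12 cases.

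A smaller set of negative genes fell in atg5 alone. PYE (AT3G47640), the POPEYE transcription factor of the iron deficiency response, was 6.40, 6.28 and 6.40 in col control and 5.86, 6.30 and 6.14 in col at 48 h. In atg5 it was 6.84, 6.98 and 7.30 in control and 5.40, 5.38 and 5.36 at 48 h. Atg5 lay above every col array in control and below every col array at 48 h. The interaction was -1.40 ± 0.18 (limma adjusted p = 0.0184), and it just missed the threshold without atg5 48 h replicate 1 (-1.41, adjusted p = 0.0510) or without atg5 48 h replicate 3 (-1.39, adjusted p = 0.0512). Counting these, 3 of 24 alternatives ended the call of PYE (limma adjusted p up to 0.0573).

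AT5G25240 was 4.83, 4.75 and 4.82 in col control, 4.75, 4.75 and 4.45 in col at 48 h, 6.33, 6.01 and 6.15 in atg5 control and 4.64, 4.43 and 4.38 in atg5 at 48 h. Only the atg5 control arrays stood apart, and the interaction was -1.53 ± 0.16 (limma adjusted p = 0.00608). AT4G01330, a protein kinase, was 6.96, 6.90 and 7.05 in col control and 6.86, 6.54 and 6.73 in col at 48 h, against 7.59, 7.44 and 7.20 in atg5 control and 5.77, 5.99 and 5.92 in atg5 at 48 h. The interaction was -1.26 ± 0.16 (limma adjusted p = 0.0163), and 1 of 24 alternatives ended the call of AT4G01330 (adjusted p up to 0.0716). AT3G03980, of the short-chain dehydrogenase family, fell in both genotypes and fell further in atg5, to 3.20, 3.47 and 3.08 against 4.75, 4.54 and 4.59 in col, from 6.70 to 7.02 over both control groups. Its interaction was -1.28 ± 0.16 (limma adjusted p = 0.0163), and the call was lost with values raised to 4 (-0.53, adjusted p = 0.106).

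In AT1G61667 the responses passed in opposite directions, 0.88 in col and -0.71 in atg5. Its signals were 4.57, 4.11 and 4.08 in col control, 5.45, 5.04 and 4.92 in col at 48 h, 4.99, 4.46 and 4.63 in atg5 control and 3.93, 3.93 and 4.07 in atg5 at 48 h. The submerged groups were apart and the controls overlapped. The interaction was -1.60 ± 0.27 (limma adjusted p = 0.0489), over the threshold in 10 of 12 cases with 1 array left out (adjusted p up to 0.113), and it missed the threshold with values raised to 4 (-1.55, adjusted p = 0.0523).

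**Figure D3:**
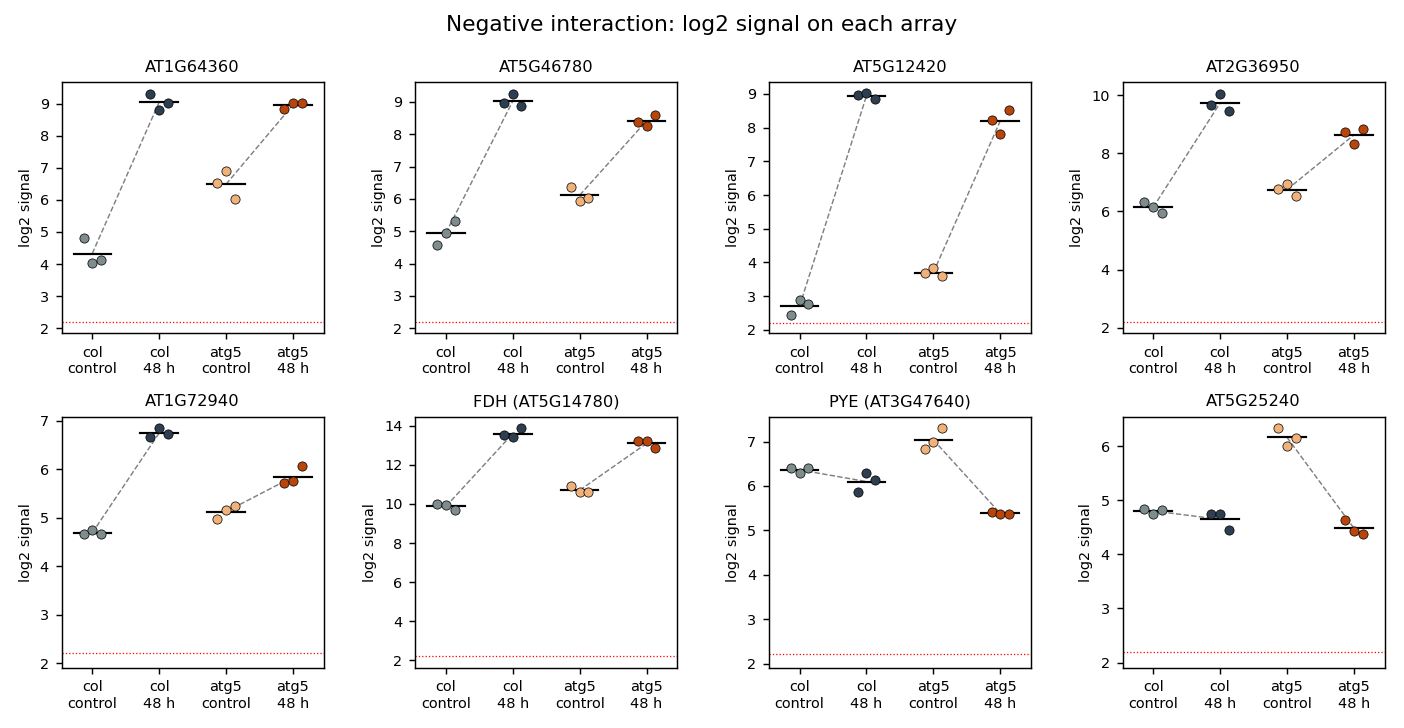
Log2 signal on each array for 8 genes with a negative interaction, drawn as for the positive genes. In AT1G64360, AT5G46780, AT5G12420, AT2G36950, AT1G72940 and FDH the dashed line climbs less steeply in atg5 than in col, and in PYE and AT5G25240 it drops in atg5 from a control level above that of col.

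The remaining negative genes named here were also picked after their values were seen. AT5G47570, a subunit of complex I, was 11.00, 11.03 and 10.93 in col control and 10.48, 10.52 and 10.41 in col at 48 h, against 10.88, 10.94 and 10.90 and then 9.93, 9.97 and 9.93 in atg5. It fell in both genotypes and further in atg5, with an interaction of -0.45 ± 0.05 (limma adjusted p = 0.00608). The call of AT5G47570 held with each array left out (adjusted p up to 0.0229). It ended with each array centred on its median (adjusted p = 0.0639), without genes at the floor in a group (0.104) and without the dimmest 40% of genes (0.148). AT4G37830, a subunit of cytochrome c oxidase, was 10.97, 11.09 and 11.11 in col control and 11.52, 11.56 and 11.42 in col at 48 h, while the 6 atg5 arrays lay between 11.12 and 11.25. Its interaction was -0.42 ± 0.07 (limma adjusted p = 0.0440). UBC16 (AT1G75440), a ubiquitin-conjugating enzyme, rose by 2.44 in col and by 1.45 in atg5, an interaction of -0.99 ± 0.15 (limma adjusted p = 0.0319). With 1 array left out the call ended in 9 of 12 cases for AT4G37830 (adjusted p up to 0.0982) and in 8 for UBC16 (up to 0.0770). That of AT4G37830 also ended with median centring (limma adjusted p = 0.13), without the dimmest 40% of genes (0.190) and without genes at the floor in a group (0.140). It missed the threshold with the trended prior (0.0636) and the robust prior (0.0509) as well. With the replicate block neither AT4G37830 (0.137) nor UBC16 (0.112) passed.

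AT1G05700, a receptor-like kinase with leucine-rich repeats, rose from 2.26 on every col control array to 6.85, 6.92 and 7.10, and from 2.35, 2.35 and 2.47 to 6.08, 6.24 and 6.17 in atg5. Its submerged groups were apart and its interaction was -0.92 ± 0.09 (limma adjusted p = 0.00608). Both control groups lay near the floor, so the true rises can be larger than these. With values raised to 4 the interaction of AT1G05700 was -0.79 (limma adjusted p = 0.0126). BGLU16 (AT3G60130), a beta-glucosidase, was 8.54, 8.73 and 8.43 in col control and 9.06, 9.25 and 9.36 in col at 48 h, against 8.48, 8.57 and 8.60 and then 8.34, 8.09 and 8.16 in atg5. The controls overlapped and the submerged groups did not, with an interaction of -1.01 ± 0.14 (limma adjusted p = 0.0248). That call ended in 4 of 12 cases with 1 array left out (adjusted p up to 0.0679) and with the replicate block (limma adjusted p = 0.106).

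The 21 genes that passed with a group at the floor comprised 16 positive and 5 negative ones. Of these, 10 were at the floor in both genotypes at 48 h, so that their interaction is the difference already present in control. A further 5 were at the floor in both control groups. Groups or single arrays at the floor can enter both responses, so no limit is given for the size of these interactions.

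AT2G19200 was seen in 1 group only. Every array of the other 3 groups was at 2.20 or 2.21, and the atg5 48 h arrays read 5.27, 6.19 and 6.37. At 48 h atg5 thus lay above col by at least 3.74 (fitted interaction 3.74 ± 0.33, limma adjusted p = 0.00392). AT4G27290, an S-locus lectin receptor kinase, was at 2.20 on all col control arrays and at 2.20, 2.20 and 2.31 in atg5 control. It reached 3.55, 3.81 and 4.00 in col and 6.24, 5.67 and 5.90 in atg5 at 48 h. The submerged groups were apart by 2.15, and the fitted interaction was 2.11 ± 0.21 (limma adjusted p = 0.00608). Both calls held under every alternative run for them.

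Other genes at the floor were present in control and lost their signal under water in both genotypes. AT5G45670, a GDSL-type lipase, was 5.10, 5.97 and 4.90 in col control and 2.90, 3.14 and 2.21 in atg5 control, and all 6 submerged arrays read 2.21. AT5G07030, an aspartyl protease, was 5.84, 5.74 and 6.47 in col control and 4.07, 3.73 and 3.05 in atg5 control, and 2.20 to 2.22 at 48 h. In both genes col control stood above atg5 control with no overlap, by 2.57 and by 2.40. The fitted interactions have the same size (limma adjusted p = 0.0437 and 0.0336). With 1 array left out these adjusted p reached 0.101 for AT5G45670 and 0.0808 for AT5G07030, above the threshold in 9 and 6 of 12 cases. With values raised to 4 the interaction of AT5G45670 was 1.32 and did not pass (adjusted p = 0.135).

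AT1G04680, a pectate lyase singled out after its values were seen, fell furthest of the genes at the floor. It was 8.53, 8.34 and 8.54 in col control, 7.72, 7.68 and 7.60 in atg5 control and 2.20 on every submerged array. Its fitted interaction of 0.81 ± 0.07 (limma adjusted p = 0.0046) is the control difference. AT2G24970 (1.76 ± 0.30) and AT1G76620 (1.54 ± 0.26) had the same shape, higher in col control than in atg5 control and at or near the floor at 48 h, and each passed narrowly (limma adjusted p = 0.0471 for both). Leaving out 1 array ended the call of AT2G24970 in 10 of 12 cases (adjusted p up to 0.107) and that of AT1G76620 in 9 (up to 0.105). With values raised to 4 AT2G24970 did not pass either (0.36, adjusted p = 0.726).

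The negative genes at the floor were AT2G19970, AT1G49210 and 3 with very small differences. AT2G19970, of the family of PR-1-like secreted proteins, was at 2.20 to 2.22 in every control array and reached 7.56, 7.40 and 7.76 in col and 6.65, 6.18 and 6.16 in atg5. The submerged groups were apart by 1.24, and the fitted interaction was -1.23 ± 0.18 (limma adjusted p = 0.0307). AT1G49210, a RING-type ubiquitin ligase, rose only in col, to 3.73, 3.45 and 4.36 against 2.32, 2.31 and 2.31 in atg5, and its interaction was -1.56 ± 0.26 (limma adjusted p = 0.0471). With 1 array left out the call ended in 7 of 12 cases for AT2G19970 (adjusted p up to 0.0736) and in 10 for AT1G49210 (up to 0.107), whose interaction was -0.12 with values raised to 4 (adjusted p = 1). AT1G78990 (-0.32), AT1G31380 (-0.17) and AT5G04840 (-0.16) had highest array values of 2.65, 2.41 and 2.37, close to the floor.

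**Figure D4:**
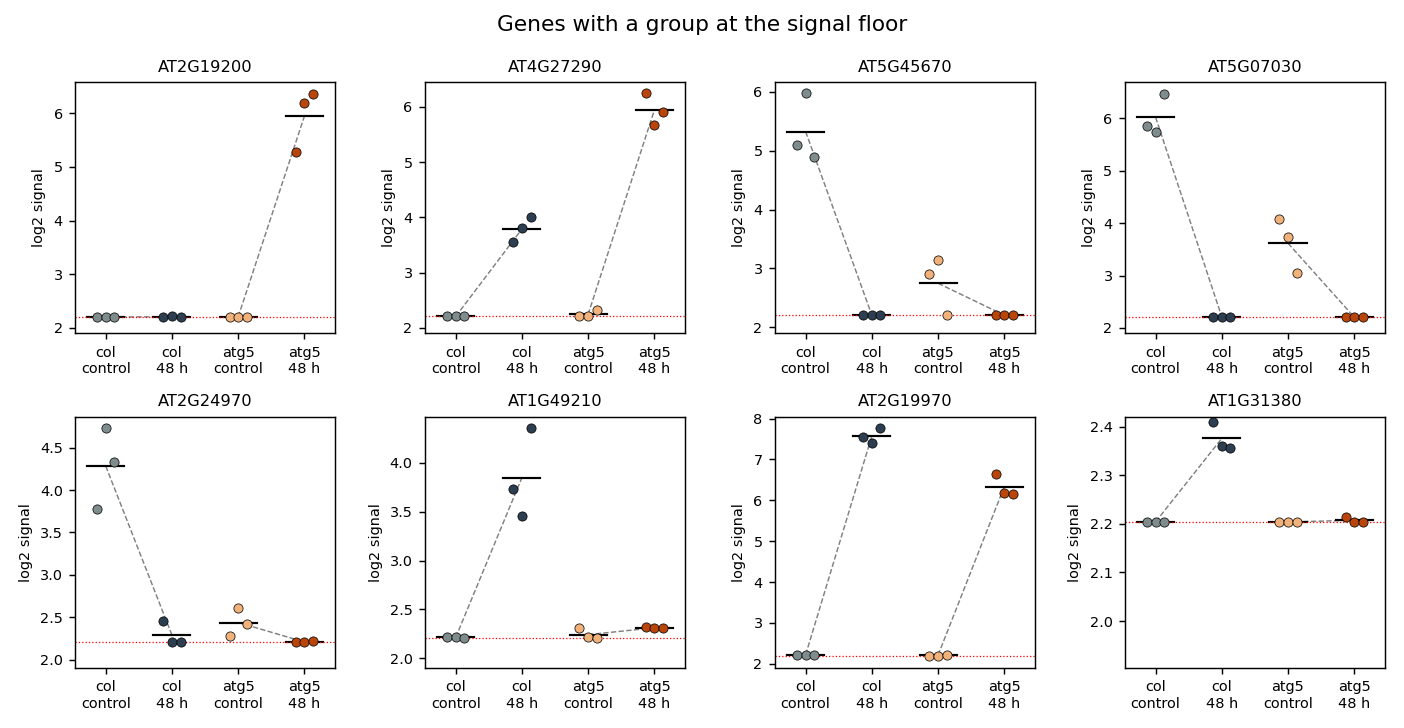
Log2 signal on each array for 8 genes that passed with at least 1 group at the signal floor (red dotted line at 2.20), drawn as for the other genes. AT2G19200 leaves the floor only in atg5 at 48 h, AT5G45670 and AT5G07030 reach it in both genotypes at 48 h, and the axis of AT1G31380 spans a much smaller range than the others.

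For the many genes that did not pass, the data bound the interaction only in part. Of the 8180 genes measured in all groups, 4738 (57.9%) had a 95% interval of the interaction that lay wholly between -1 and 1, that is within a 2-fold difference of the responses. A further 3394 had an interval that reached past 1 in size without passing, so with 3 arrays per group a 2-fold difference was not excluded. Some of these intervals left out 0, such as that of ATG8D (AT2G05630, -1.79 to -0.21), though the adjusted p did not pass. The median SE was 0.26, and the share of genes bounded in this way was 51.2% among the 2727 dimmest, 53.1% among the next 2726 and 69.4% among the 2727 brightest.

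The responses as a whole were of nearly the same size. The first principal axis of the atg5 response on the col response had a slope of 0.960, from 0.925 without col 48 h replicate 3 to 0.997 without col 48 h replicate 2. Among genes that rose in both genotypes, 65.1% of 2217 rose less in atg5, with a median interaction of -0.14. This share stayed between 60.2% and 70.1% with any 1 array left out. Among genes that fell in both, 54.5% of 2365 fell less in atg5, with a median of 0.05. That share went to 47.4% without atg5 48 h replicate 2 and to 47.5% without col 48 h replicate 2, where the median turned to -0.03. Over all 13356 genes the median interaction was 0, and over the 8180 it was -0.03. Genes are not independent replicates, and these shares were not tested.

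No member of the autophagy list passed the interaction test (0 of 19 measured, against 0.599% of all genes). The median interaction of the list was -0.49, and 4 of 19 were positive. Submergence raised 17 of the 19 in col and 16 in atg5, where 20.4% and 19.1% of all genes rose. The ATG8 genes encode the small proteins that are attached to the autophagosome membrane by the machinery that includes ATG5. All 9 that were measured had a negative interaction, from -1.0 to -0.04 with a median of -0.61, while the median of the other 10 autophagy genes was -0.03. Among all genes that rose in both genotypes, 65.1% had a negative interaction. The 9 genes were read on the same arrays and are no independent replicates. With 1 array left out the ATG8 median lay between -0.73 and -0.52, and 8 or 9 of the 9 were negative.

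ATG8F (AT4G16520) came nearest to the threshold. It was 11.02, 10.79 and 10.91 in col control and 12.23, 12.38 and 12.30 in col at 48 h, against 11.82, 11.53 and 11.70 and then 12.42, 12.45 and 12.53 in atg5. Atg5 was higher than col at both times with no overlap, and the gap was smaller under water, an interaction of -0.61 ± 0.12 (limma adjusted p = 0.0752). The widest difference was in ATG8D (AT2G05630), with 8.10, 7.86 and 8.44 and then 9.74, 10.37 and 9.57 in col, and 8.42, 8.37 and 8.42 and then 9.31, 8.77 and 9.41 in atg5. The submerged groups were separated by little, and its interaction of -1.0 ± 0.35 did not pass (limma adjusted p = 0.277). The most positive member was AT1G49180, of the ATG1 kinase family, at 0.33 ± 0.21 (limma adjusted p = 0.685). The median of the list ranged from -0.61 without col 48 h replicate 3 to -0.23 without col 48 h replicate 2, where 8 of 19 were positive, and 1 member passed without atg5 control replicate 2.

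The core hypoxia list holds transcripts that rise in most Arabidopsis cell types when oxygen runs low. Of its 25 measured members 1 passed, the negative gene AT1G72940 described above, and the list median was -0.02. The median reached -0.20 without atg5 48 h replicate 3. AT1G19530 rose from 2.34 to 2.47 over the col control arrays to 9.84, 9.79 and 10.08, and from 2.47 to 2.55 over the atg5 control arrays to 10.23, 10.41 and 10.07. Its interaction was 0.21 ± 0.14, with a 95% interval from -0.10 to 0.52, so its large rise in signal was the same in both genotypes within 2-fold. Its control arrays all lay near the floor, so the true rises can be larger and their difference is not bounded. AT4G27450 had an interaction of -2.50 ± 0.51 that did not pass (limma adjusted p = 0.0806). It was 4.64, 3.59 and 4.28 in col control, 7.33, 6.18 and 6.0 in atg5 control and between 11.54 and 11.90 on all submerged arrays.

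The photosynthesis list had 9 measured members, all with a positive interaction and none passing, and a median of 0.34. All 9 fell in col and 8 fell in atg5, where 22.1% and 21.2% of all genes fell. SBPASE (AT3G55800), an enzyme of the Calvin cycle, was 13.11, 12.94 and 12.90 in col control and 9.61, 8.90 and 10.30 at 48 h, against 12.75, 12.76 and 12.66 and then 10.18, 10.38 and 10.22 in atg5. The submerged groups overlapped because of col replicate 3, and the interaction was 0.91 ± 0.40 (limma adjusted p = 0.440). LHCB4.2 (AT3G08940), an antenna protein of photosystem II, had the smallest interaction, 0.18 ± 0.51 (limma adjusted p = 0.982). The list median was 0.05 without col 48 h replicate 2, where 6 of 9 were positive, and 0.62 without col 48 h replicate 3. It moved with the same arrays as the mesophyll markers. SBPASE and LHCB4.2 are also mesophyll markers, so the lists share genes and this is partly given in advance. The part of the mesophyll markers in the list median was not tested.

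Amino acid breakdown, which feeds the mitochondria of starved leaves, had 13 measured members and none that passed, with a median of -0.06. The median went from -0.24 without col 48 h replicate 1 to -0.02 without col 48 h replicate 3. Submergence raised 11 of the 13 in each genotype. The interaction ranged from -0.61 ± 0.29 for MCCB (AT4G34030, limma adjusted p = 0.486), a subunit of the leucine breakdown enzyme methylcrotonyl-CoA carboxylase, to 0.24 ± 0.24 for ETFBETA (AT5G43430, limma adjusted p = 0.759), an electron carrier. The interval lay within 1 log2 for 8 of the 13. Proteasome subunits had a negative interaction in 6 of 6, with a median of -0.21 and none passing, from -0.88 ± 0.42 for AT1G79210 (limma adjusted p = 0.495) to -0.10 ± 0.22 for AT5G45620 (limma adjusted p = 0.945). This rested in part on col 48 h replicate 2, without which the median was -0.03 and 3 of 6 were positive, and it was -0.38 without col 48 h replicate 3.

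Cell wall expansion genes went both ways, from -1.21 ± 0.32 for EXO (AT4G08950, limma adjusted p = 0.147) to 0.95 ± 0.39 for EXPA15 (AT2G03090, limma adjusted p = 0.393), with 0 of 6 passing and a median of 0.23 that ranged from -0.06 to 0.48 with 1 array left out. The 4 measured genes of the abscisic acid, cold and dehydration list had a median of 0.62 and none passed. That median went from 0.35 without atg5 control replicate 2 to 0.84 without col control replicate 3. They fell steeply in both genotypes, COR15A (AT2G42540), a chloroplast cold protection protein, with a response of -7.30 in col and -6.07 in atg5. The 4 of the endoplasmic reticulum stress list had a median of -0.27 and none passed, with BZIP28 (AT3G10800), a membrane-bound transcription factor, at -0.87 ± 0.26 (limma adjusted p = 0.192). The median of these 4 was -0.15 without col 48 h replicate 2 and -0.41 without col 48 h replicate 3. AT5G48570 of the heat shock list had an interaction of 2.01 ± 0.58 that did not pass (limma adjusted p = 0.185).

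The smaller lists, of 1 to 4 measured genes each, held no gene that passed. QQS (AT3G30720), which sets how leaf carbon is divided between starch and protein, kept a large difference between the genotypes at both times. It was 7.95, 6.08 and 7.25 in col control and 5.18, 3.34 and 4.66 in col at 48 h, against 9.81, 10.09 and 10.04 and then 7.50, 7.61 and 7.34 in atg5. Every atg5 array lay above every col array of the same time, by means of 2.88 and 3.09, and the interaction of 0.21 ± 0.76 was too widely measured to bound (limma adjusted p = 1). AKINBETA1 (AT5G21170), a subunit of the energy sensor kinase SnRK1, rose by 3.75 in col and by 2.85 in atg5, and its interaction of -0.90 ± 0.26 did not pass (limma adjusted p = 0.185). Families collected by symbol were likewise without a call, with 0 of 43 UDP-glycosyltransferases, 0 of 24 cytochrome P450 enzymes and 0 of 19 expansins passing. At the 0.599% of all genes that passed, lists of this size would be expected to hold hardly any call.

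**Figure D5:**
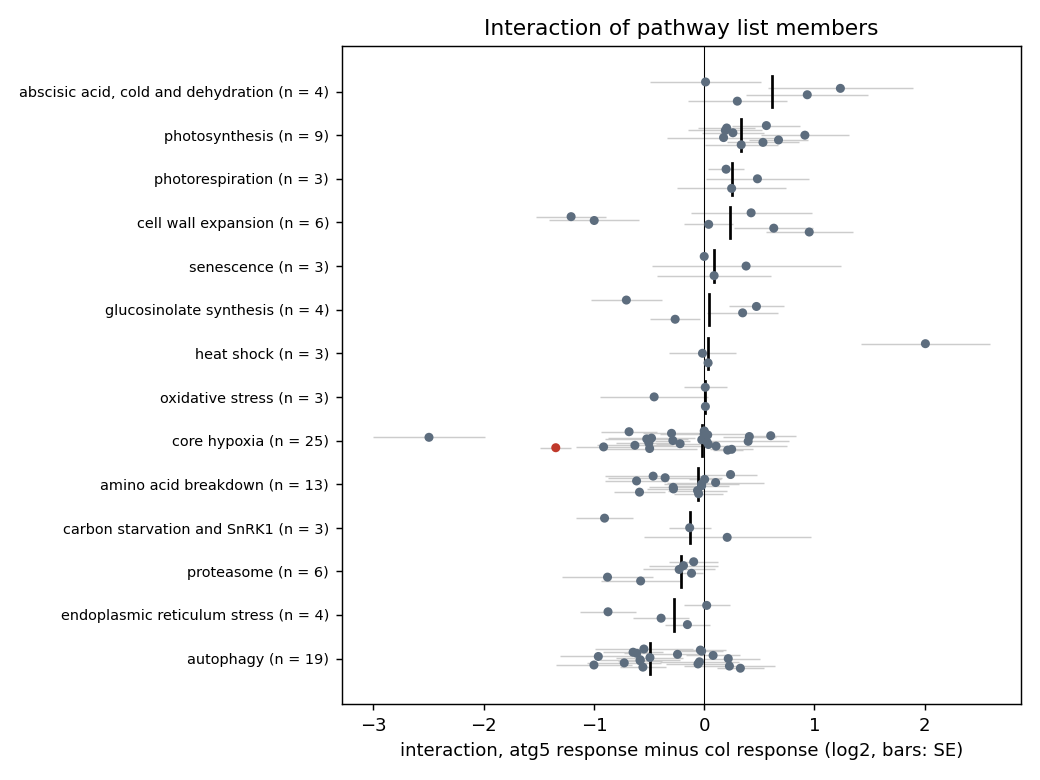
Interaction of each measured member of 14 gene lists (points, log2, with bars of 1 SE) and the median of each list (black tick), where n is the number measured. The only member that passed, AT1G72940 of the core hypoxia list, is in red. The autophagy points reach from -1.0 to 0.33 and all 9 photosynthesis points lie to the right of 0.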

How the data were processed

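Leaf RNA of 12 samples in 4 groups of 3 biological replicates was measured on 1-colour Affymetrix arrays. The authors deposited 1 log2 signal per probe set and array, a scale that was read from the values. Per the submitters' processing notes MAS5 and GCRMA were used, with no version, role or order given, and the values carry no detection calls or scan dates. Of 22810 probe sets, 64 controls, 503 assigned to several genes and 8730 not named here were left out. The brightest probe set stood for each of 146 genes with more than 1, which left 13356 genes. Symbols came from a RefSeq gene table, and no coordinates or sequences are printed.

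Values were used as deposited. The 4 group means were estimated in one linear model (limma 3.58.1 in R 4.3.3, 8 residual and 0.488 prior degrees of freedom). Two-sided p-values were adjusted by Benjamini and Hochberg's method over the 13356 genes, and 0.05 was the threshold. The fit was tested on simulated data. The number of arrays limits the precision.

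The genes named were the 12 largest positive and 12 largest negative interactions among genes that passed and were measured in all groups, the 6 largest in each direction (5 negative ones passed) among those with a group at the floor, and from each list the members that passed or otherwise its extremes. Further genes are marked in the text or given for their list. Members, lists and rules were chosen with earlier results of these data known. The alternatives were other normalizations and filters, all or averaged probe sets, a replicate block, other variance priors, array weights, a linear scale, a fold threshold and each array left out.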

Additional observations from a re-analysis of the deposited data

Results flagged for a closer look

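For 35 of the genes described above the test of the difference itself passed, so the fitted log2 responses differed between the 2 genotypes. In AT5G45670, AT5G07030, AT2G24970, AT1G76620, AT1G78990, AT5G04840, AT3G17130 and ATLP-1 both genotypes were at or near the floor at 48 h. The interaction of these genes is mainly the control difference, and whether submergence acted unequally on them cannot be told. Both control groups were at or near the floor in M10, LUP5, AT1G07160, AT5G59070, ATSMC2, AT2G19200, AT4G27290, AT2G19970, AT1G49210 and AT1G31380. Their interaction is mainly the difference at 48 h. A control difference hidden by the floor could not be measured there, so unequal responses cannot be told with certainty. The values are interactions on the log2 scale from limma, and all adjusted p are below 0.05. Among genes measured in all groups the positive ones were AT5G37590 (3.22), M10 (AT2G41280, 2.86), AT4G29020 (2.65), AT3G01060 (2.17), AT5G24240 (2.15), LUP5 (AT1G66960, 2.13), AT1G07160 (1.88), ATLP-1 (AT1G18250, 1.62), AT3G17130 (1.57), AT2G32500 (1.57), ATSMC2 (AT3G47460, 1.53) and AT5G59070 (1.42).

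The negative ones were AT1G64360 (-2.25), AT5G46780 (-1.78), AT5G12420 (-1.74), AT2G36950 (-1.71), AT1G61667 (-1.60), AT5G25240 (-1.53), PYE (AT3G47640, -1.40), AT1G72940 (-1.35), FDH (AT5G14780, -1.33), AT3G03980 (-1.28), AT4G01330 (-1.26) and AT1G21830 (-1.21).

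With a group at the signal floor, where the size has no firm limit, the positive genes were AT2G19200 (3.74), AT5G45670 (2.57), AT5G07030 (2.40), AT4G27290 (2.11), AT2G24970 (1.76) and AT1G76620 (1.54). The negative genes were AT1G49210 (-1.56), AT2G19970 (-1.23), AT1G78990 (-0.32), AT1G31380 (-0.17) and AT5G04840 (-0.16).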

How the results depend on the processing

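The count of 80 genes became 134 with each array centred on its median, 156 without the dimmest 40% of genes, 141 of 8180 without genes at the floor in a group and 157 with all probe sets. Fewer genes were tested under the filters (8014 and 8180) and more with all probe sets (22746), yet the count rose in each case. Adjusted p went both ways. Without the dimmest 40% of genes it rose for AT5G47570 (limma, 0.00608 to 0.148) and fell for UBC16 (0.032 to 0.026). With all probe sets, the 157 held all 80, and 70 of the 157 were probe sets unnamed or assigned to several genes, which the main test left out. Why the counts rose with centring and with the filters was not tested. The count was 44 with a difference of at least 1 log2 required as well, and 51 to 186 with 1 array left out. With the replicate number as a block it was 34, of which 33 were among the 80, and 19 of the 35 named calls ended. The labels do not say whether arrays of the same replicate number belong together. Deviations of same-numbered arrays from their group means correlated from -0.48 to 0.11, with 1 of 18 pairs over 0.1, and those of other numbers from -0.18 to 0.35. Whether same-numbered arrays share a batch was not tested. The slope and the count of bounded genes kept within their range under the alternatives run for them.

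Of the 35 named genes, 16 kept their call with each array left out and 8 under all alternatives run for them (M10, AT5G24240, AT3G01060, ATLP-1, AT1G72940, AT5G25240, AT2G19200 and AT4G27290), and none changed sign on the log2 scale. Raising values to 4, added after seeing the data, ended 13 calls, the robust prior 9, quantile normalization 4, median centring 3, array weights 2 and the trended prior 1. AT2G32500 turned to -5.82 on the linear scale. Signals near the floor limit what could be told for dim genes, and 3 arrays per group and the low prior limit it for the rest.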
